A study of Mus musculus with 6 samples.

Results

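The genes described here are *Hsd17b6* and 5 relatives that lie with it on mouse chromosome 10, namely *Rdh1*, *Rdh7*, *Rdh9*, *Rdh16* and *Sdr9c7*. They were chosen by symbol, as listed members of the short-chain dehydrogenase cluster of that chromosome, and each symbol matched 1 gene identifier among the 55487 gene rows of the count tables. The choice was made with the C75S against WT comparison of these libraries already known, so the differences of these 6 genes are given as a description, without a test. RNA was sequenced from hepatocytes, the main parenchymal cell of the liver, of mice homozygous for AEG-1-C75S and of AEG-1-WT mice, with 3 libraries in each group. AEG-1 is the protein encoded by *Mtdh*, and C75S replaces with serine the cysteine that carries its palmitoyl group. The mice of both groups were 6 to 8 weeks old and came from matings between C75S heterozygotes, RNA was extracted 48 h after the cells were isolated, and all 6 libraries carry the treatment label Control. Whether the libraries of a group were made from different mice is not recorded in the labels, so n is the number of libraries and the p-values measure only the spread between these libraries, which may be technical.

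Short-chain dehydrogenases of this family sit on membranes of the endoplasmic reticulum and use a nicotinamide cofactor to oxidise or reduce hydroxyl and keto groups. Several of them accept both retinols, which they convert to retinal on the way to retinoic acid, and 3-alpha-hydroxysteroids such as androstanediol, which they convert back towards active androgens. The liver is the main store of vitamin A and a main site of steroid inactivation, and the rodent genes of this cluster multiplied by tandem duplication. *Hsd17b6* encodes a hydroxysteroid dehydrogenase that oxidises androstanediol. *Rdh7*, *Rdh9* and *Rdh16* encode enzymes described as cis-retinol and androgen dehydrogenases, *Rdh1* encodes a dehydrogenase of all-trans-retinol, and *Sdr9c7* encodes a relative best known from the epidermal lipid barrier.

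In GRCm38 the 6 genes span 247.9 kb, from position 127759721 to 128007611 of chromosome 10. *Rdh1* (ENSMUSG00000089789, chr10:127759721-127768297), *Rdh9* (ENSMUSG00000056148, chr10:127776386-127792697) and *Rdh16* (ENSMUSG00000069456, chr10:127801152-127846565) follow each other on the plus strand. *Rdh7* (ENSMUSG00000040134, chr10:127884028-127888817) lies on the minus strand, and *Sdr9c7* (ENSMUSG00000040127, chr10:127898518-127911761) lies on the plus strand, so that these neighbours are transcribed away from each other with 9.7 kb between their starts. *Hsd17b6* (ENSMUSG00000025396, chr10:127990936-128007611) lies on the minus strand at the far end, 79.2 kb beyond *Sdr9c7*. Each of the 6 genes is annotated as protein coding and has 4 coding exons. The coding exons are 313, 259, 164 and 215 bases long in *Hsd17b6*, *Rdh1*, *Rdh9* and *Rdh16*, while the second is 256 bases long in *Rdh7* and the first is 301 bases long in *Sdr9c7*.

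How far the genes can be told apart by reads depends on the exon. Over the whole coding sequence *Rdh9* and *Rdh16* were 96.3% identical, *Rdh1* and *Rdh16* 93.1%, and *Rdh7* and *Rdh1* 87.3%. *Hsd17b6* was 72.7% identical to *Rdh1* and 71.6% to *Rdh7*, and *Sdr9c7* was the most distant, at 61.3% to *Hsd17b6*. The identity of *Hsd17b6* was unevenly spread: its first coding exon was 93.6% identical to that of *Rdh1* and 91.4% identical to that of *Rdh7*, with an unbroken identical run of 248 bases shared with *Rdh1* and of 103 bases shared with *Rdh7*. Its remaining coding exons were, in order, 65.7%, 57.9% and 61.7% identical to those of *Rdh7*. Coding exon 3 is printed for 5 genes because it shows both ends of this range, with capitals marking each base that differs from *Hsd17b6* at the same position, counted without gaps. It lies at chr10:127993596-127993759 (minus strand) in *Hsd17b6*, chr10:127903578-127903741 (plus) in *Sdr9c7*, chr10:127885673-127885836 (minus) in *Rdh7*, chr10:127790189-127790352 (plus) in *Rdh9* and chr10:127812786-127812949 (plus) in *Rdh16*, each in GRCm38 and read 5′ to 3′ along its gene.
Hsd17b6 coding exon 3: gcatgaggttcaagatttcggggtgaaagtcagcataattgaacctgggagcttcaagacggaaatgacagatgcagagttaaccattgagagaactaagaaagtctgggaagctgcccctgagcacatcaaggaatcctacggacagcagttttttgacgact
Sdr9c7 coding exon 3: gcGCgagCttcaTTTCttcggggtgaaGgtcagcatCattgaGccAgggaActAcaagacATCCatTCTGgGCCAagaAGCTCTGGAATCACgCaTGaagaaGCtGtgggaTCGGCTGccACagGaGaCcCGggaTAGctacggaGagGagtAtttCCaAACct
Rdh7 coding exon 3: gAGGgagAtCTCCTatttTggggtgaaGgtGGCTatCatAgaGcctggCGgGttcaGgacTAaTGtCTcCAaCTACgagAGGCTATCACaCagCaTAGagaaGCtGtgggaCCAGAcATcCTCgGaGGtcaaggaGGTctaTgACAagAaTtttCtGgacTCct
Rdh9 coding exon 3: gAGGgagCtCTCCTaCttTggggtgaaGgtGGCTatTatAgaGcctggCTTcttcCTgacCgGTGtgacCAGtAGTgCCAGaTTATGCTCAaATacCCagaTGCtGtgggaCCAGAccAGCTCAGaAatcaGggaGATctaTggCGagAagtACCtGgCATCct
Rdh16 coding exon 3: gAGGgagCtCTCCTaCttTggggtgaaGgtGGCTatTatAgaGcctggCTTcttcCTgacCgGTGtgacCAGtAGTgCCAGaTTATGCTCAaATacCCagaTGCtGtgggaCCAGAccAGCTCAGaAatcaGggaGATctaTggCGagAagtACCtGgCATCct
At this exon 70 of 164 bases differed from *Hsd17b6* in *Sdr9c7*, 78 in *Rdh7* and 84 in both *Rdh9* and *Rdh16*. *Rdh9* and *Rdh16* differed from each other at 0 bases, so a read inside it cannot be assigned to either of them.

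The share of each gene's transcript sequence that occurs in no other gene's transcripts gives the same picture for words of 50 bases. The read length is not given in the sources used here. All 50-base words of *Sdr9c7* were unique to it, against 87.9% for *Hsd17b6*, 87.1% for *Rdh7*, 85.5% for *Rdh16* and 84.4% for *Rdh1*. Only 31.7% were unique for *Rdh9*. In the annotation 64.1% of the exon length of *Rdh9* is shared on the same strand with *Rdh16f1*, a gene outside the 6, and *Rdh1* and *Rdh16* share 11.8% and 6.1% with other genes of the cluster. Reads that map to more than 1 place, or that fall where 2 genes overlap, were counted to no gene, so the counts of *Rdh9* in particular are low estimates. *Hsd17b6*, *Rdh7* and *Sdr9c7* share no exon with another gene on either strand, and only 8 counts of these 6 genes lay on the opposite strand, against 31088 on their own.

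The 250 bases before the starts of *Hsd17b6* and *Sdr9c7* are printed because these 2 members differed in opposite directions between the genotypes. They come from RefSeq (GRCm38.p6), lie at chr10:128007612-128007861 (minus strand) and chr10:127898285-127898534 (plus strand), and are read 5′ to 3′ towards the start. Capitals mark matches, on either strand, to 4 short motifs: AGGTCA (the nuclear receptor half-site), TTCNNNGAA (the STAT palindrome), CCAAT and TATAAA.
Hsd17b6 promoter: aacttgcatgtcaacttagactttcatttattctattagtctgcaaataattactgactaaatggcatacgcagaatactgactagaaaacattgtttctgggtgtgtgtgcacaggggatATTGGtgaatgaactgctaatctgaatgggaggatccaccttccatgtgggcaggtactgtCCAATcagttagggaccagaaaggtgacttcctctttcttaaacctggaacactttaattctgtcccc
Sdr9c7 promoter: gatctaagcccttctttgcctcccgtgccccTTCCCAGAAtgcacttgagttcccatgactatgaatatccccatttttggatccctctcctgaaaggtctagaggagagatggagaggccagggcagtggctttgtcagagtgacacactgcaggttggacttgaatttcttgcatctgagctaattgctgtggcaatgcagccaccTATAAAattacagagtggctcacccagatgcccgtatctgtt
*Hsd17b6* held CCAAT at bases -129 to -125 (as its reverse complement) and at -68 to -64, counted from the start site, and no match to the other 3. *Sdr9c7* held a match to the STAT palindrome at -219 to -211 and TATAAA at -42 to -37, and none to AGGTCA or CCAAT. Of 32851 RefSeq promoter windows of this length, 33.8% held CCAAT, 14.0% AGGTCA, 12.4% TATAAA and 7.0% TTCNNNGAA. No motif found overlapped another within these 2 windows. RefSeq lists a further start of *Hsd17b6* at 128007508 and starts of *Rdh7* at 127889247 and 127888733. AGGTCA was found in the windows of *Rdh9*, *Rdh16* and the distal start of *Rdh7*. The window of *Rdh16* also held the STAT palindrome at -230 to -222 and TATAAA at -82 to -77, the same pair as *Sdr9c7*. CCAAT was found in the windows of *Rdh1*, *Rdh9* and the distal start of *Rdh7* too. These matches describe the letters and were not tested for binding.

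The 6 libraries held 16944723 to 21044292 counts on genes, and 3 counts corresponded to 0.143 to 0.177 CPM, the count as a share of the library's total after scaling by the trimmed mean of M-values (TMM). Of the 55487 gene rows, 12741 passed the filter on low counts and were tested with edgeR's quasi-likelihood test, and 396 of these (3.11%) had an adjusted p-value under 0.05, 222 higher (1.74%) and 174 lower (1.37%) in C75S. All 20 hepatocyte markers were tested, 2 were called higher and 3 lower, and they summed to 87400 to 102600 CPM in C75S and 99310 to 107300 CPM in WT. Of 12 lymphocyte and neutrophil markers, 10 had no count in any library. Kupffer cell and macrophage markers summed to 97.2 to 140.8 CPM in C75S and 104.5 to 135.2 CPM in WT, and endothelial markers to 42.32 to 55.69 and 42.87 to 52.1 CPM, so both sums overlapped between groups. Of the 8 tested endothelial markers 6 had the higher value in C75S and the median on the log2 scale was 0.29. *Pecam1* (0.70, SE 0.27), *Lyve1* (0.85, SE 0.29) and *Kdr* (0.69, SE 0.42) did not overlap between groups, as did 18.0% of all tested genes. None of the 8 passed the edgeR threshold, with 2 at an unadjusted p-value under 0.05, beside 13.4% of all tested genes. *Stab2*, the most abundant of them, stood at -0.09 (SE 0.20). Summed cholangiocyte markers did not overlap between groups, at 297.2 to 364.1 CPM in C75S and 258.3 to 270.1 CPM in WT. Of the 8 tested markers 6 had the higher value in C75S and 2 the lower, with a median of 0.49 on the log2 scale. In edgeR 1 of the 8 (*Krt19*) was called and 4 had an unadjusted p-value under 0.05, beside 13.4% of all tested genes. *Cftr* was at 0 and *Epcam* between 0 and 0.57 CPM. Among 6 tested stellate cell markers 1 (*Acta2*) was called, higher in C75S, beside 1.74% of all tested genes called higher. That call was lost in 4 of 13 alternatives, each of them leaving out 1 library (edgeR adjusted p up to 0.116). The summed list of these markers was at 59.16 to 75.96 CPM in C75S and 73.69 to 95.03 CPM in WT. *Xist* lay between 0 and 0.39 CPM and 4 Y-linked genes were expressed in all 6 libraries.

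*Hsd17b6* was 3.85-fold higher in C75S hepatocytes, *Sdr9c7* was at 0.609 of its WT level and *Rdh7* at 0.853 of it, while *Rdh16* and *Rdh9* overlapped between the genotypes and *Rdh1* was near the limit of detection. Of the 6 genes 5 passed the filter on low counts, and *Rdh1* did not. *Hsd17b6*, *Sdr9c7* and *Rdh7* did not overlap between the groups, as did 18.0% of all tested genes, and since the choice of members used this contrast nothing is read from that count. In bulk RNA, fewer cells that express a gene and less of its RNA per cell cannot be told apart.

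*Hsd17b6*, the hydroxysteroid dehydrogenase, had 185, 212 and 184 counts in C75S replicates 1 to 3 and 64, 46 and 54 counts in WT replicates 1 to 3. Scaled to library size this was 10.62, 10.06 and 9.843 CPM in C75S and 3.039, 2.242 and 2.62 CPM in WT. All C75S libraries lay above all WT libraries, and the lowest C75S value was over 3 times the highest WT value. The means were 10.17 ± 0.40 CPM in C75S and 2.63 ± 0.40 CPM in WT (SD, n = 3 each). On the log2 scale C75S exceeded WT by 1.95 (SE 0.16), with an interval of 2 standard errors from 1.62 to 2.27, and by size of rise *Hsd17b6* ranked 7 of the 12741 genes tested. The coefficient of variation between C75S libraries was 3.96%, below the 7.19% that counting noise alone gives at these counts, and in WT it was 15.1% against 13.5%. The first coding exon resembles that of *Rdh7*, and the assignment of reads between the 2 genes was not tested.

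*Sdr9c7*, the relative known from the epidermis, had 108, 160 and 120 counts in C75S and 192, 275 and 223 counts in WT. Its level was 6.201, 7.59 and 6.419 CPM in C75S and 9.116, 13.4 and 10.82 CPM in WT. Every C75S library lay below every WT library, with WT replicate 2 the highest of all. The means were 6.74 ± 0.75 and 11.11 ± 2.16 CPM (SD, n = 3 each), and the log2 fold change was -0.72 (SE 0.15, interval of 2 standard errors from -1.01 to -0.42). Without WT replicate 2 it was -0.56. Its replicates spread more than counting noise, with a coefficient of variation of 19.4% in WT where counting alone gives 6.59%.

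*Rdh7*, the most abundant of the 6 and a cis-retinol and androgen dehydrogenase, had 3396, 5060 and 4334 counts in C75S and 5438, 5255 and 5524 counts in WT. The levels were 195.0, 240.0 and 231.8 CPM in C75S and 258.2, 256.1 and 268.0 CPM in WT. The groups did not overlap, and C75S replicate 1, the shallowest library, was the lowest. The means were 222.3 ± 24.0 and 260.8 ± 6.36 CPM (SD, n = 3 each), and the log2 fold change was -0.23 (SE 0.06, interval from -0.35 to -0.11). Leaving out C75S replicate 1 moved it to -0.14, over 1.5 times nearer to 0.

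*Rdh16*, a further one of the cis-retinol and androgen dehydrogenases, had 19, 30 and 34 counts in C75S and 24, 47 and 35 in WT. Its means were 1.44 ± 0.36 and 1.71 ± 0.58 CPM (SD, n = 3 each), and the groups overlapped. The log2 fold change was -0.24 (SE 0.33), and its interval, from -0.89 to 0.42, holds both falls and rises of moderate size. *Rdh9*, its near copy, had 1, 19 and 7 counts in C75S and 8, 16 and 14 in WT. The log2 fold change of -0.39 (SE 0.58, interval from -1.55 to 0.76) rested largely on C75S replicates 1 and 2: it was 0.08 without the former and -1.45 without the latter. *Rdh1*, the all-trans-retinol dehydrogenase, had 2, 1 and 0 counts in C75S and 0, 1 and 0 in WT. Both groups were at or under 3 counts in all, so no fold change is given, and a difference in *Rdh1* was not detectable at this depth.

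**Figure D1:**
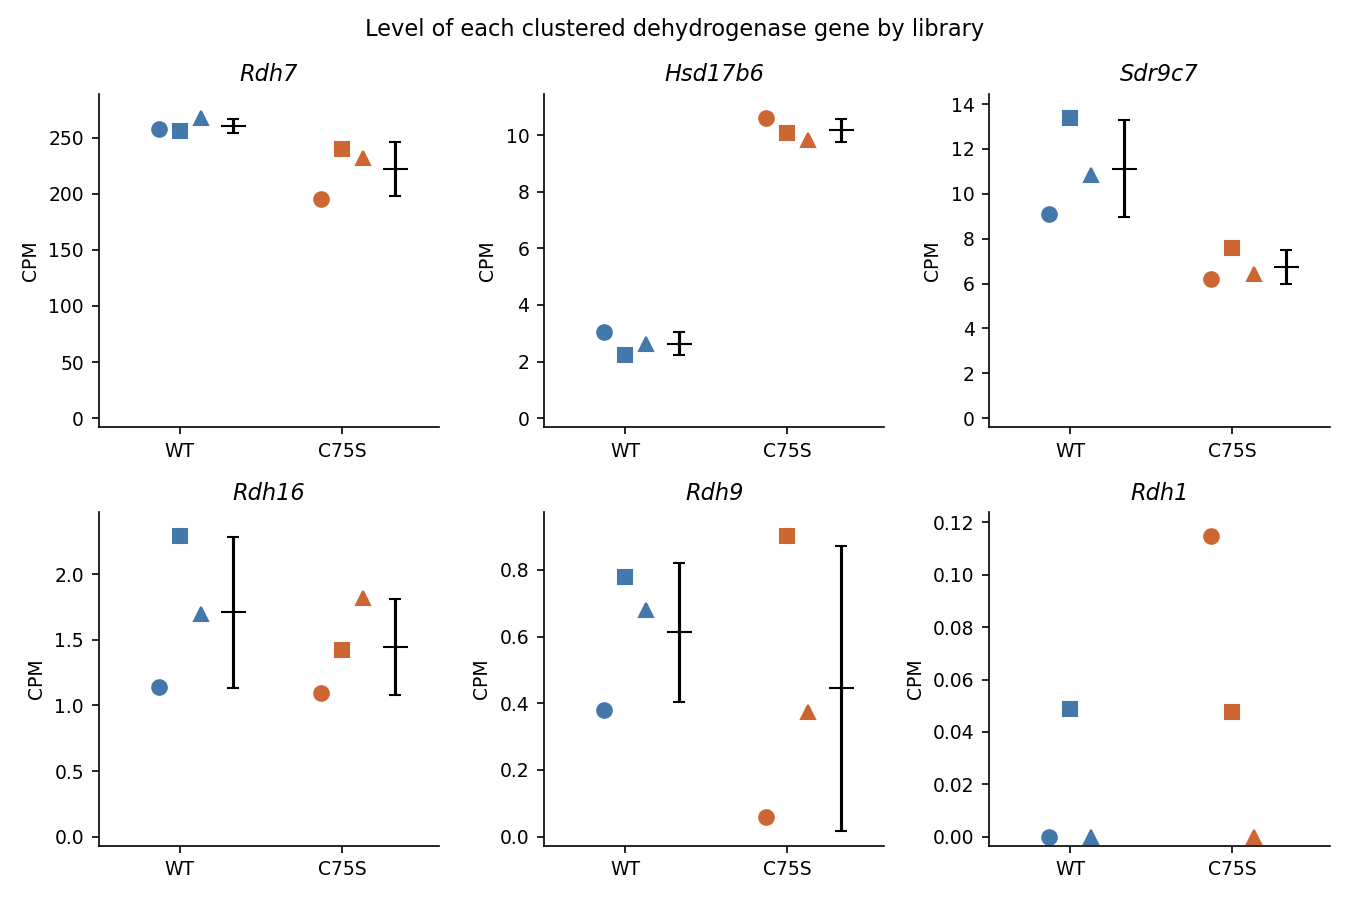
Level of each of the 6 clustered dehydrogenase genes in CPM (linear axes that differ between panels), by genotype. Circles, squares and triangles are replicates 1, 2 and 3, and the black bar is the mean ± SD (n = 3, not drawn for *Rdh1*, which has 4 counts in all). *Hsd17b6* lies at 9.843 to 10.62 CPM in C75S and 2.242 to 3.039 CPM in WT, *Sdr9c7* and *Rdh7* lie lower in C75S without overlap, and the remaining 3 overlap.

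Levels of different genes were compared per kilobase of exon. In WT the order was *Rdh7* at 155 ± 3.79 CPM per kb, *Sdr9c7* at 3.66 ± 0.71, *Hsd17b6* at 1.67 ± 0.25, *Rdh16* at 0.275 ± 0.093, *Rdh9* at 0.171 ± 0.058 and *Rdh1* at 0.0041 ± 0.0072 CPM per kb (SD, n = 3). In C75S *Rdh7* was again first, at 133 ± 14.3 CPM per kb, but *Hsd17b6* at 6.46 ± 0.26 stood above *Sdr9c7* at 2.22 ± 0.25 CPM per kb. The levels of *Hsd17b6* and *Sdr9c7* did not overlap in either genotype: in WT the lowest *Sdr9c7* library was at 3.001 and the highest *Hsd17b6* library at 1.929 CPM per kb, and in C75S the lowest *Hsd17b6* library was at 6.25 and the highest *Sdr9c7* library at 2.498 CPM per kb. *Rdh16* and *Rdh9* overlapped in both genotypes, from 0.183 to 0.368 and from 0.106 to 0.217 CPM per kb in WT, so their order is not beyond the spread. The exon length counts all annotated exons, which for *Rdh9* includes sequence whose reads were assigned to no gene.

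Ratios of raw counts within a library do not depend on how libraries are scaled to each other. The ratio of *Hsd17b6* to *Sdr9c7* counts was 1.713, 1.325 and 1.533 in the C75S libraries and 0.333, 0.167 and 0.242 in the WT libraries. In C75S, *Hsd17b6* thus made up 60.2% ± 3.1 of the counts of this pair, and in WT 19.6% ± 5.3 (SD, n = 3 each). The ratio of *Rdh7* to *Hsd17b6* was 18.4, 23.9 and 23.6 in C75S and 85.0, 114 and 102 in WT, and did not overlap. The ratio of *Rdh7* to *Sdr9c7* was 31.4, 31.6 and 36.1 in C75S and 28.3, 19.1 and 24.8 in WT, so *Sdr9c7* was lower relative to *Rdh7* in every C75S library. These ratios come from the contrast by which the genes were chosen and are a description.

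**Figure D2:**
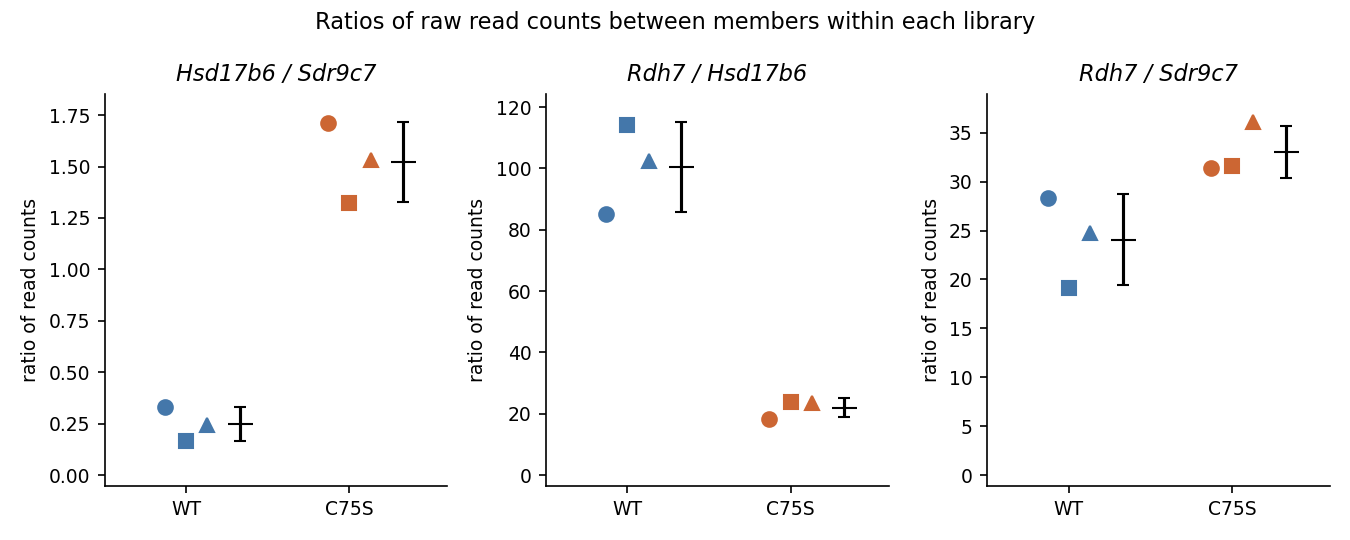
Ratio of raw read counts between pairs of genes within each library, on linear axes starting at 0, by genotype. Circles, squares and triangles are replicates 1, 2 and 3, and the black bar is the mean ± SD (n = 3). The ratio of *Hsd17b6* to *Sdr9c7* is 1.325 to 1.713 in C75S and 0.167 to 0.333 in WT, and the ratio of *Rdh7* to *Hsd17b6* is below 24 in C75S and above 84 in WT.

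Summed over the 6 genes, the cluster gave 213.1, 260.1 and 250.3 CPM in C75S and 271.9, 274.9 and 283.8 CPM in WT. *Rdh7* made up 91.51% to 92.63% of these counts in C75S and 93.17% to 94.97% in WT. *Hsd17b6* made up 4.99%, 3.87% and 3.93% in C75S and 1.12%, 0.816% and 0.923% in WT. The summed level therefore followed *Rdh7* and did not show the difference in *Hsd17b6*. Intervals are not given for these shares because the spread between libraries is shown directly.

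The other genes of the region were examined next, since they share the chromosome segment with the 6 members but were not used to choose them. Within 500 kb of the cluster 80 other genes are annotated, and 41 of them were tested. The edgeR quasi-likelihood test called 0 of the 41 at an adjusted p-value of 0.05, beside 3.11% called among all genes. Of the 41, 6 had an unadjusted p-value under 0.05, beside 13.4% of all genes tested. At this number of genes 0 calls do not set the region apart from all genes. DESeq2 and limma-voom also called 0, with 5 and 7 at an unadjusted p-value under 0.05. The median log2 fold change of the 41 genes was -0.01, beside -0.003 for all genes tested, and the values ran from -0.25 (*Ndufa4l2*) to 0.60 (*Rdh16f2*), with 19 above 0 and 22 below. Immediately beyond *Hsd17b6*, *Prim1*, which encodes the catalytic subunit of DNA primase, had a log2 fold change of 0.05 (SE 0.20), and *Naca*, which encodes a ribosome-associated chaperone subunit, had one of -0.04 (SE 0.06). They were named for their position after their values were seen, as were *Ndufa4l2* and *Rdh16f2* for being the extremes. *Apof*, which encodes apolipoprotein F, was the single neighbour called under an alternative, at -0.17 without the filter on low counts and -0.23 without C75S replicate 3.

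*Rdh16f2* is a further retinol dehydrogenase gene of the cluster, between *Rdh16* and *Rdh7*. It had 54, 48 and 44 counts in C75S and 30, 36 and 39 in WT, so the groups did not overlap. Its log2 fold change was 0.60 (SE 0.26), and it did not pass the edgeR threshold (adjusted p = 0.300). Of its 50-base words 90.0% were unique to it. *Rdh16f1* was at 0 in all 6 libraries, but 0.0% of its 50-base words were unique, so reads of that length could not have been assigned to it.

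**Figure D3:**
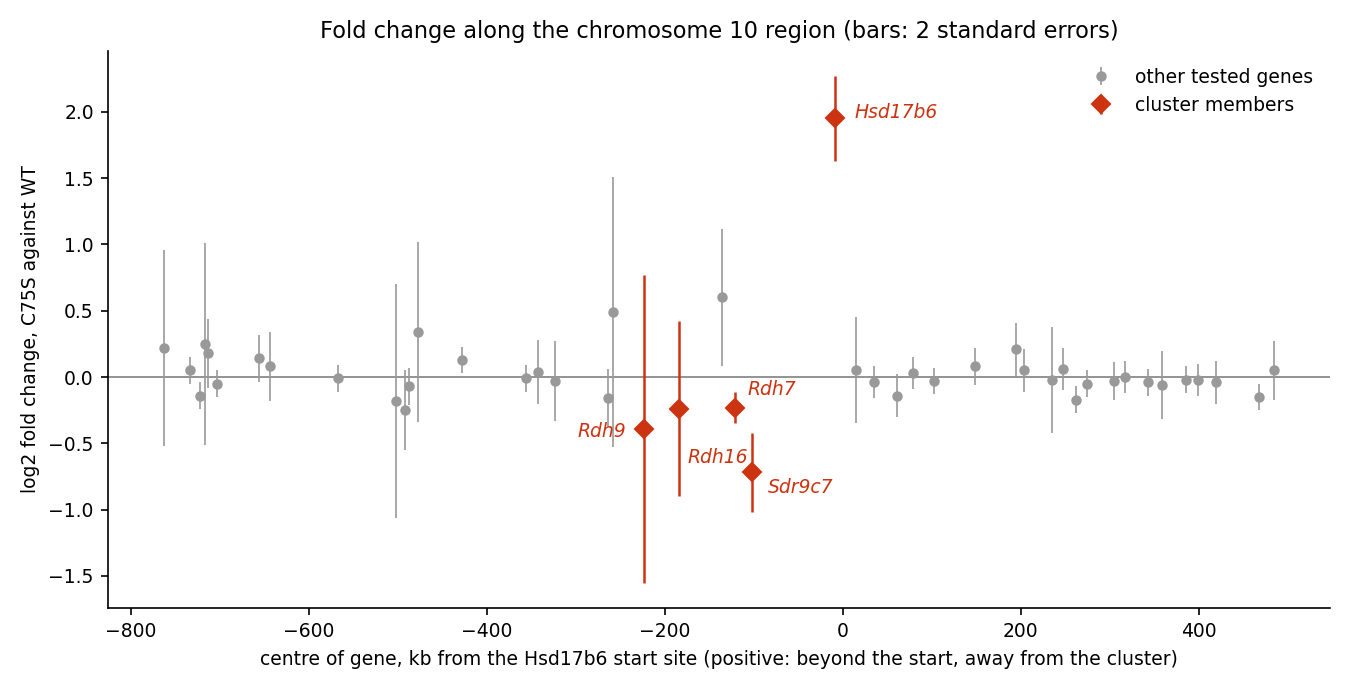
Log2 fold change of C75S against WT for each tested gene within 500 kb of the cluster, by the distance of the gene's centre from the *Hsd17b6* start site in kilobases (positive values lie beyond the start, away from the cluster). Diamonds are the cluster members, circles the 41 other tested genes, and bars are 2 standard errors from edgeR. *Hsd17b6* stands at 1.95 and *Sdr9c7* at -0.72, while the other tested genes lie between -0.25 and 0.60.

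The wider set of enzymes that interconvert retinol, retinal and retinoic acid was examined in the same fit. Of 24 such genes outside the 6, 18 were tested, and the edgeR quasi-likelihood test called 0 of them, beside 3.11% overall; 5 reached an unadjusted p-value under 0.05, beside 13.4% overall; DESeq2 and limma-voom called 0 as well, with 5 and 6 at that unadjusted threshold. At this list size 0 calls do not set the list apart from all genes. The median log2 fold change was -0.004, with 8 above 0 and 10 below. *Aldh1a1*, the retinal dehydrogenase that makes retinoic acid, was measured at 2123, 2372 and 2035 CPM in C75S and 2085, 2005 and 2197 CPM in WT, with a log2 fold change of 0.05 (SE 0.06). *Adh1*, the cytosolic alcohol dehydrogenase that also oxidises retinol, was at 894.8, 1034 and 1169 CPM in C75S and 1056, 1189 and 1219 CPM in WT, with -0.16 (SE 0.09). Without C75S replicate 3 *Adh1* stood at -0.26 and was called. *Aldh8a1*, a dehydrogenase of 9-cis-retinal, stood at -0.23 (SE 0.08) and was called without the low-count filter, and *Dhrs9*, a microsomal retinol dehydrogenase, stood at 0.26 (SE 0.10). These 4 genes were chosen for their role after their values were seen. *Rdh8*, *Rdh16f1* and *Aldh1a2* had 0 counts in every library.

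Among 17 genes of retinoid storage and transport, 11 were tested and 1 was called, higher in C75S, beside 3.11% of all genes. *Lrat*, the retinol-esterifying enzyme that marks the vitamin A storing stellate cell, lay between 0.142 and 0.634 CPM and overlapped between the groups. *Rbp4*, the secreted retinol carrier, had a log2 fold change of -0.11 (SE 0.06) and did not pass the edgeR test. *Cd36*, a fatty acid transporter, stood at -0.48 (SE 0.11) with an edgeR adjusted p of 0.0659, which DESeq2 and limma-voom put under 0.05. The median of the 11 genes was -2.03e-05. The summed cholangiocyte markers and most tested endothelial markers were also higher in C75S. So was *Acta2*, but of the 6 tested stellate cell markers 3 were higher and 3 lower. The summed stellate list was at 59.16 to 75.96 CPM in C75S and 73.69 to 95.03 CPM in WT. The part of these cell types in the *Hsd17b6* value and in the call of this list was not tested.

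Of 20 retinoic acid receptors, clearance enzymes and targets, 16 were tested and 1 was called, beside 3.11% of all genes. *Pparg*, a nuclear receptor that pairs with the retinoid X receptor, fell from 17.95, 19.35 and 18.1 CPM in WT to 14.99, 14.09 and 14.5 CPM in the C75S libraries, by 0.35 on the log2 scale (SE 0.09, adjusted p = 0.0430 from edgeR). That call was lost in 8 of 13 alternatives, among them DESeq2 and each left-out library, with an adjusted p of up to 0.186. *Cyp26a1*, the hydroxylase that clears retinoic acid and is itself induced by it, was at 5.799, 4.032 and 5.457 CPM in C75S and 3.513, 3.265 and 3.445 CPM in WT. The groups did not overlap, but its log2 fold change of 0.57 (SE 0.19) did not pass the edgeR threshold (adjusted p = 0.124). *Rara*, a receptor of retinoic acid, stood at 0.08 (SE 0.07), *Rarb*, whose gene is a known target of retinoic acid, at 0.03 (SE 0.14) and *Rxra*, the main liver retinoid X receptor, at -0.07 (SE 0.05). The median of the 16 was 0.03, beside -0.003 for all genes.

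Of 42 other steroid dehydrogenases and genes of androgen metabolism, 41 matched a row, 28 were tested and 2 were called, 1 in each direction, beside 3.11% of all genes. *Hsd11b1*, which regenerates active glucocorticoid, rose from 90.21, 92.6 and 87.28 CPM in WT to 99.11, 103.7 and 115.3 CPM in C75S (log2 fold change 0.24, SE 0.06, edgeR adjusted p = 0.0199). *Hsd17b13*, a lipid droplet enzyme reported to act on retinol, fell from 1270, 1299 and 1420 CPM to 1031, 1164 and 1165 CPM (-0.25, SE 0.06, edgeR adjusted p = 0.0188). Each of these calls was lost in 3 of 13 alternatives, all of them leaving out 1 library: replicate 3 of either genotype or WT replicate 2 for *Hsd11b1* (adjusted p up to 0.177), and C75S replicate 1, WT replicate 2 or WT replicate 3 for *Hsd17b13* (up to 0.143, edgeR). *Cyp17a1*, the enzyme that makes androgen precursors, was at 114.3, 119.1 and 119.3 CPM in C75S and 124.0, 165.0 and 167.4 CPM in WT, with no overlap. Its log2 fold change of -0.37 (SE 0.11) did not pass the edgeR threshold (adjusted p = 0.173), but it was called with DESeq2, limma-voom, the replicate block, no filter, and without WT replicate 1. Of the enzymes of androgen turnover nearer to 0, *Srd5a1*, a steroid 5-alpha-reductase, stood at -0.05 (SE 0.11), *Akr1c14*, a 3-alpha-hydroxysteroid dehydrogenase, at 0.04 (SE 0.05), and *Hsd17b2*, which inactivates testosterone, at -0.06 (SE 0.05). *Hsd3b5*, named for its size after its values were seen, had low counts, 10, 22 and 10 in C75S and 7, 6 and 5 in WT. The groups did not overlap, and its log2 fold change of 1.31 (SE 0.51) did not pass the edgeR threshold (adjusted p = 0.214). The median of the 28 genes was 0.02.

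**Figure D4:**
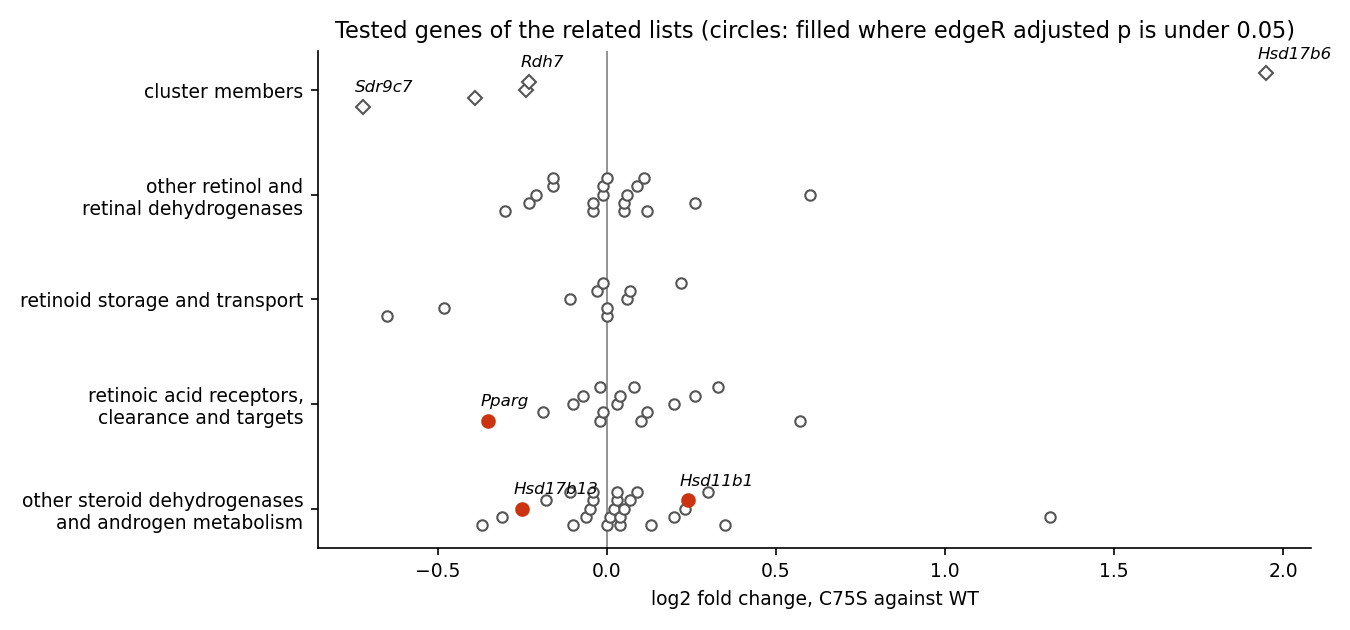
Log2 fold change of C75S against WT for tested genes of the cluster and of the 4 related lists, with filled circles for an edgeR adjusted p-value under 0.05. Diamonds are the cluster members, shown without a test. Vertical offsets within a row only separate the points, and not every tested gene of the lists is drawn. *Hsd17b6* lies at 1.95, and the called genes drawn from the related lists, *Pparg*, *Hsd17b13* and *Hsd11b1*, lie between -0.35 and 0.24.

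Because several enzymes of androgen metabolism differ between the sexes in mouse liver, genes known to be sex-biased there were listed as well. Of 20 male-biased genes 17 were tested and 1, *Moxd1*, was called, beside 3.11% of all genes. *Moxd1*, which encodes a monooxygenase of the endoplasmic reticulum, had 79 counts over the C75S libraries and 2 over the WT libraries, a ratio of 43.0 per scaled count (95% interval 11.5 to 360.9, exact, covering counting error only). Of 28 female-biased genes 12 were tested and 2 were called lower, beside 1.37% of all genes called lower. Of the 12, 8 had a log2 fold change below 0 and 4 above. *Fmo2*, a flavin monooxygenase, fell from 17.71, 14.38 and 13.29 CPM to 8.843, 10.06 and 9.522 CPM (log2 fold change -0.67, SE 0.12, edgeR adjusted p = 0.00136). *Slc22a27*, an organic anion transporter, fell by 0.74 on the log2 scale (SE 0.20, edgeR adjusted p = 0.0414), a call lost in 6 of 13 alternatives, with limma-voom and without each library other than C75S replicate 2 (adjusted p up to 0.222). The medians of the 2 lists were -0.02 and -0.13. Of 4 tested sex-chromosome genes 1 was called higher, beside 1.74% of all genes. It was *Ddx3y*, an RNA helicase gene on the Y chromosome, at 0.28 (SE 0.05, edgeR adjusted p = 0.00319), while *Uty*, *Kdm5d* and *Eif2s3y* lay between -0.10 and -0.04.

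The genes whose level across the 6 libraries was most like that of each member were found by Pearson's r of log2 CPM over 9360 genes with a mean of at least 5 CPM. For *Hsd17b6* these were *Cdipt* (r = 0.998), *Emc4* (0.996), *Mup16* (0.996), *Tsc22d1* (0.994) and *Plec* (0.994), and 73 genes had r over 0.95. Only *Mup16*, a major urinary protein gene whose near-identical copies make its count uncertain, was more than 1.5-fold higher in C75S, at 16.17 ± 0.69 CPM against 7.57 ± 0.75 CPM in WT (log2 fold change 1.09, SE 0.12). The other 4 genes had log2 fold changes of 0.09 to 0.15, and their order within a genotype was not always that of *Hsd17b6*. For *Rdh7* they included *Hadha* (0.999) and *Lipa* (0.995), with log2 fold changes of -0.17 and -0.10, and for *Sdr9c7* they were *Mob4* (0.992), *Xrn2* (0.981) and *Pik3r4* (0.981), at -0.18 to -0.10. These correlations rest on 6 points that share the genotype difference and the scaling of the libraries, and they are a description.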

How the data were processed

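RNA from hepatocytes was sequenced from TruSeq libraries on a HiSeq3000, per the labels' protocols. The deposited files hold raw counts per Ensembl gene in STAR's layout; the submitters' processing notes name Trim Galore 0.6.6, STAR 2.7.9a, edgeR 3.36.0 and the builds mm10 and GRCm38, without their roles. The reverse-strand counts were used, since their totals were 32.9 to 33.9 times those of the forward strand, and summary rows were dropped. Multimapping reads (17.98% to 18.54%) and ambiguous reads (0.89% to 0.93%) are listed apart and reach no gene. The annotation release is not given in the sources used here; 55227 of 55487 identifiers matched GENCODE M21 (GRCm38).

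Genes were filtered with filterByExpr (minimum count 10, minimum total 15), scaled by TMM and, in R 4.3.3, passed to the robust quasi-likelihood test of edgeR 4.0.16 (two-sided, genotype only) with Benjamini-Hochberg adjustment over 12741 genes, threshold 0.05. A gene is called higher or lower where it passes that threshold. Standard errors of log2 fold changes are their size over the square root of F. Alternatives were limma-voom (limma 3.58.1), DESeq2 1.42.0, scaling by RLE or by library size, no filter, unstranded counts, a replicate block and leaving out each library.

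The members and gene lists were chosen with earlier results of these data known. Named were all members, up to 3 called genes per list by p-value and called neighbours within 500 kb. Also named were the 5 genes most correlated with *Hsd17b6* and 3 with each other member of at least 5 CPM. All others were chosen for their role, position or value after their values were seen. Some genes that these rules chose are not reported here. Of the marker lists only single genes are named. Within a genotype the chi-square per degree of freedom between libraries was 4.05 to 8.99, so none repeats another.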

Additional observations from a re-analysis of the deposited data

How the results depend on the processing

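Over the 13 alternatives the log2 fold change of *Hsd17b6* ran from 1.84 to 2.06, that of *Sdr9c7* from -0.84 to -0.56 and that of *Rdh7* from -0.29 to -0.14. *Rdh1* had no fitted value. *Rdh9* ran from -1.45 to 0.08 and *Rdh16* from -0.46 to 0.03 as single libraries were left out; the depth of 27 and 83 counts over the C75S libraries limits both. The count of called genes, 396, ran from 201 to 355 with 1 library left out (leaving out WT replicate 2 gave 201, WT replicate 3 gave 246, and C75S replicate 1 gave 253) and from 372 to 573 under the other settings. Samples with the same replicate number did not deviate together (correlations 0.017, -0.040 and 0.025); a replicate block gave 480 calls, 388 of them shared. Called genes among the other retinol and retinal dehydrogenases numbered 1 without the filter and 1 with the replicate block (*Aldh8a1*). With a library left out they numbered 0 to 1 (*Adh1* without C75S replicate 3). Retinoid storage and transport gave 2 with DESeq2, library-size scaling, limma-voom or the block, 3 without the filter and 1 to 2 with a library left out. The retinoic acid list gave 0 with DESeq2, library-size scaling and any library left out. The steroid list gave 4 without the filter and 0 to 3 with a library left out, the female-biased list 1 with limma-voom and 1 to 2 with a library left out, and the neighbourhood 1 without the filter and 0 to 1 with a library left out. Where a list count changed, the cause was not tested.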
